A study of Mus musculus with 3 samples.

Results

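The genes for DNA methyltransferases, for their cofactors and for the enzymes that oxidise methylated cytosine were examined as a group of 9 genes: Dnmt1, Uhrf1, Dppa3, Dnmt3a, Dnmt3b, Dnmt3l, Tet1, Tet2 and Tet3. They were chosen by name, and every valid window of 2 kb that overlapped a gene body of the GENCODE M21 annotation (GRCm38), or the 10 kb on either side of it, was taken. This gave 361 of 1186323 valid windows, of which 271 lay in gene bodies and 90 in flanks. All windows that could lie in the gene bodies were valid except for 1 of 42 in Tet2.

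H3K36me3 was measured with native ChIP-seq for very low cell numbers in germinal vesicle (GV) oocytes, which are fully grown oocytes arrested before the first meiotic division. The mice were 25 days old and of the strain C57BL6/Babr, and no treatment of them is described. There was a single group of 3 replicates, each a separate pool of about 280 oocytes, and less antibody was used for replicate 2 than for replicates 1 and 3. The paper describes an antibody titration, after which another replicate was made with the larger amount. It does not say which replicate number this was. The libraries held 7888140, 2692510 and 3166564 reads in valid windows in replicates 1, 2 and 3, and nothing in the data allowed a comparison with another condition.

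H3K36me3 is laid down by SETD2 as it travels with the elongating RNA polymerase, so that it covers the bodies of genes that are being transcribed, and in growing oocytes it is linked to de novo DNA methylation of these regions. DNMT1 with UHRF1 copies methylation to the new DNA strand, DNMT3A with its cofactor DNMT3L sets new methylation in the oocyte, and TET enzymes oxidise methylated cytosine. Dnmt1 and Dnmt3l are both known to use transcription starts in oocytes that differ from those of somatic cells or of the male germ line.

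The starts themselves are shown first because the levels along the genes are described relative to them. Each line gives the 250 bases before an annotated RefSeq start (GRCm38.p6), 5′ to 3′ on the strand of the gene, with each CG dinucleotide in capitals. RefSeq promoters were found for 8 of the 9 genes. The pairs for Dnmt1, Dnmt3l and Dnmt3a set a start inside a window called H3K4me3 beside a start of the same gene with another combination of marks, and Dnmt3b is the gene whose only start region carried H3K36me3 without H3K4me3.
Dnmt1 first start, chr9:20959889-20960138, minus strand: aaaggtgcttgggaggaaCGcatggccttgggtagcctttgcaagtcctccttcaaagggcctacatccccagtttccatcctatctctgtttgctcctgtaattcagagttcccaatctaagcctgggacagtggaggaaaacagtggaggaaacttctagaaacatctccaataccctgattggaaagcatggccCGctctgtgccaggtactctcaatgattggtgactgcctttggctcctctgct
Dnmt1 start 6.91 kb further in, chr9:20952980-20953229, minus strand: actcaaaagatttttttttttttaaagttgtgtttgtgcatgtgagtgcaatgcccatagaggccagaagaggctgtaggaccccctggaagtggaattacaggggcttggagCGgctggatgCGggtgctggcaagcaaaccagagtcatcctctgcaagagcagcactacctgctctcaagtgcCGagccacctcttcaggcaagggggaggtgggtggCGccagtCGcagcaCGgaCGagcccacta
Dnmt3l start within Aire, chr10:78042037-78042286, plus strand: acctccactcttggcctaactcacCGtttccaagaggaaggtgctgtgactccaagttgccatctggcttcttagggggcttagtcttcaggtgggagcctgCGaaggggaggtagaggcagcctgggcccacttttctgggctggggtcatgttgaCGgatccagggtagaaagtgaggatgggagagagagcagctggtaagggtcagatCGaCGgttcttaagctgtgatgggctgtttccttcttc
Dnmt3l start downstream of Aire, chr10:78049592-78049841, plus strand: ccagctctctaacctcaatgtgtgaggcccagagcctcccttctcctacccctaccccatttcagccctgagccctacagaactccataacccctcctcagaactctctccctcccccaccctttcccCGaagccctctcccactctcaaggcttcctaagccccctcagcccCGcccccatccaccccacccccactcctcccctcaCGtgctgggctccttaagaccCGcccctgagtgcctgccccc
Dnmt3a outer start, chr12:3806730-3806979, plus strand: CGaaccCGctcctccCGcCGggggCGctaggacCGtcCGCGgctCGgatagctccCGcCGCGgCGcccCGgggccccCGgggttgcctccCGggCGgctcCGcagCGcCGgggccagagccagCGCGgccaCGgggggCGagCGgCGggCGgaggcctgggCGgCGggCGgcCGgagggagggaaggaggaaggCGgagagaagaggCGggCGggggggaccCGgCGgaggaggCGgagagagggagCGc
Dnmt3a internal start, chr12:3891494-3891743, plus strand: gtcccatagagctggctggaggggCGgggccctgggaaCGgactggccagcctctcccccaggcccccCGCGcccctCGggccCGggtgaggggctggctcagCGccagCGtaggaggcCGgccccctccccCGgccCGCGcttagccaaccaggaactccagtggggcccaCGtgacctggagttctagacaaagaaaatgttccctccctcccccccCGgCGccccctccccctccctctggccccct
Dnmt3b start, chr2:153649199-153649448, plus strand: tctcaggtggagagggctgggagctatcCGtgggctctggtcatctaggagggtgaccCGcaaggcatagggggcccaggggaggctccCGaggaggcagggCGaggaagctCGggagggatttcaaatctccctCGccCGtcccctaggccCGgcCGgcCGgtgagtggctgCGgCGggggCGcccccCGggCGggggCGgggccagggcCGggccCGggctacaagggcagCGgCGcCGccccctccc

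The dinucleotide CG, which reads the same on both strands, is found at least 1 time in 92.1% of the 32851 RefSeq regions of this length, with a median of 6. The region before the first Dnmt1 start held 2 CG, and 18.8% of all regions held fewer. The Dnmt3l regions held 5 and 4 CG, with 44.4% and 37.8% of all regions below them. Those of Dnmt3a were richer, with 38 CG at the outer start (98.1% of regions had fewer) and 15 at the internal start (72.7%). The Dnmt3b region held 21 CG, more than 83.7% of all regions, and the inner Dnmt1 region shown held 7 (53.7%). A further RefSeq start of Dnmt1 at 20952623, in the same window as the inner one, had 26 CG before it (90.4% of regions had fewer), so the window as a whole was not poor in CG. The outer Dnmt3a start at 3806980 lies in the same window as the first annotated start at 3806007.

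In the annotation, the region before the first Dnmt1 start overlapped no gene, and that before the inner start lay within Dnmt1 and touched no exon. The Dnmt3l region at chr10:78042037-78042286 lay inside the body of Aire, which is on the other strand, and 75 of its bases were in an Aire exon. The region at chr10:78049592-78049841 touched no exon. The Dnmt3b region lay in the antisense gene Dnmt3bos.

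**Figure D1:**
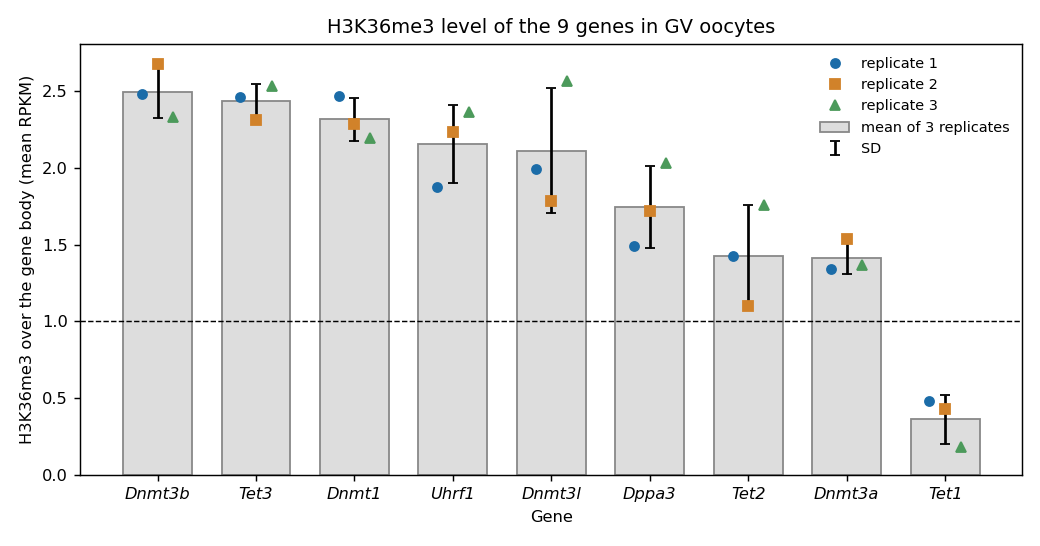
H3K36me3 over the gene bodies of the 9 genes, in order of the mean. The y axis is the mean RPKM of the windows of a gene, bars are means of 3 replicates, error bars are SD, points are replicates, and the dashed line marks the threshold of 1; Tet1 is the gene below it, in all 3 replicates.

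The mean level of H3K36me3 was above the authors' threshold in 8 of the 9 genes and low over Tet1. The authors called a window enriched when its mean RPKM, the authors' unit of reads scaled to library depth, over the replicates was above 1. The mean over the gene body was above 1 in 8 of 9 genes, compared with 52.5% of 21062 protein-coding genes. It was above 2 in 5 of the 9 genes, and the share of all protein-coding genes above 2 was not computed. The median of the 9 genes was 2.11 RPKM, beside 1.11 for all protein-coding genes. Of the 271 gene body windows, 182 (67.2%) were enriched, compared with 31.8% of all valid windows, and 127 were above 1 in each replicate, compared with 19.7% of all valid windows. Without the 53 windows of Tet1, 181 of 218 windows (83.0%) were enriched. Dnmt3a and Tet2 were covered only in part, with 33 of 55 and 29 of 41 windows enriched. Their mean levels were nearer the middle of all protein-coding genes, of which 58.0% and 58.5% were lower.

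Dnmt3b had the highest mean gene body level, followed by Tet3, Dnmt1, Uhrf1, Dnmt3l, Dppa3, Tet2, Dnmt3a and Tet1. The level was 2.50 ± 0.17 RPKM in Dnmt3b and 2.44 ± 0.11 in Tet3 (SD, n = 3 here and below). Neighbours in this order did not differ beyond the spread between replicates in most cases: in 5 of the 8 neighbouring pairs the replicates disagreed on which gene was higher. The remaining pairs were Dnmt3l above Dppa3, Dppa3 above Tet2 and Dnmt3a above Tet1, where all 3 replicates had the same order. With 3 replicates an exact sign-flip permutation test cannot give a two-sided p below 0.25, which was reached by these 3 pairs. Dnmt3a exceeded Tet1 by 2.09 ± 0.75 on the log2 scale, while Dnmt3l exceeded Dppa3 by 0.27 ± 0.19 and Dppa3 exceeded Tet2 by 0.30 ± 0.30.

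The marker genes of the sample were read on the same scale. Of 10 oocyte markers 9 were above 1, compared with 52.5% of protein-coding genes, with a median of 2.13 RPKM, and Zar1 was the exception at 0.224. Of 8 granulosa cell markers 4 (50%) were above 1, near the share of all protein-coding genes (median 0.881). They were led by Star at 2.41, while Fshr was at 0.353 and Foxl2 at 0.420. Of 4 markers of other somatic cells 1 was above 1, Pecam1 at 1.91. The summed level of the granulosa markers was between 8.30 and 9.30 in the 3 replicates and that of the oocyte markers between 19.1 and 22.5; whether other cells added to the values of the 9 genes was not tested.

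**Figure D2:**
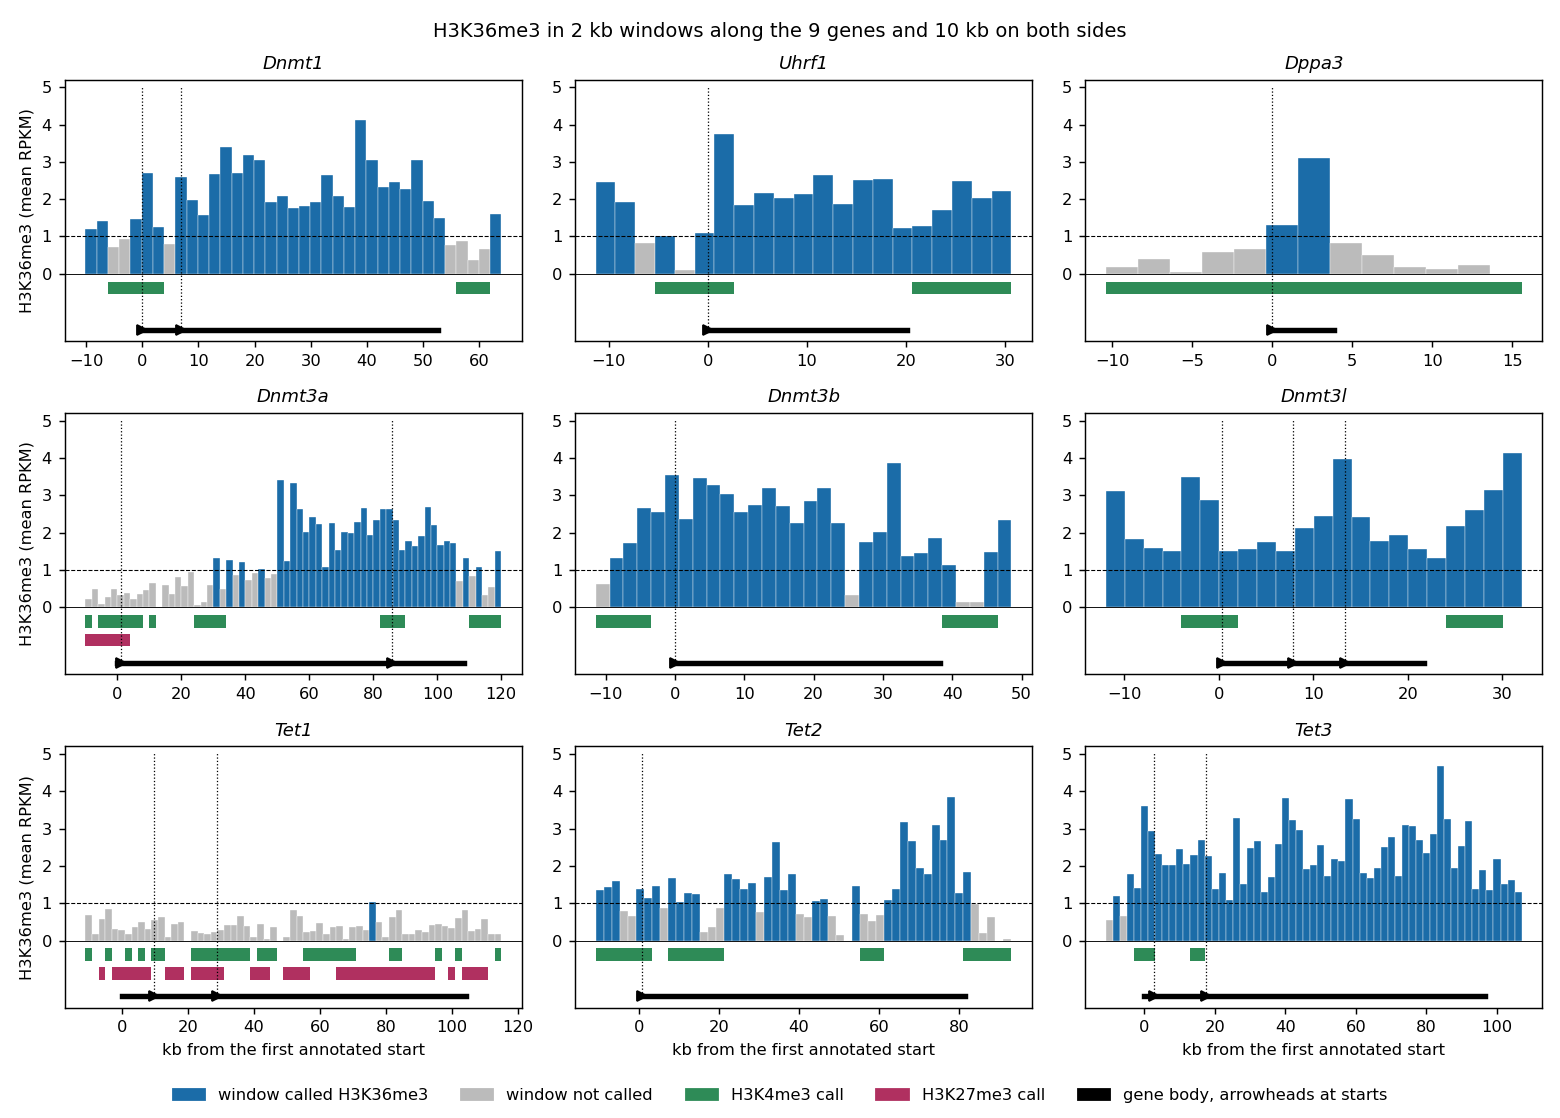
H3K36me3 along the 9 genes and 10 kb on both sides, in the direction of transcription. Each bar is the mean RPKM of 3 replicates in a window of 2 kb, blue where the window was called enriched; the strips show H3K4me3 and H3K27me3 calls, and dotted lines show starts of coding transcripts. Uhrf1, Dnmt3l and Tet3 are covered end to end, Dnmt3a from 50.0 kb after its first start, and Tet1 in 1 window.

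Among the genes of maintenance methylation, Dnmt1, the methyltransferase that copies methylation at replication, lies on chromosome 9 from 20907209 to 20959888 on the minus strand. Its level was 2.47, 2.29 and 2.19 RPKM in replicates 1, 2 and 3 (mean 2.32 ± 0.14). The replicates were close to each other, and 88.5% of protein-coding genes were lower. Of its 27 windows 26 were enriched, 19 of them above 1 in each replicate. The window that was not enriched, from 20954001 to 20956000, was at 0.788 RPKM and separated a run of 48 kb over the rest of the gene (20906001 to 20954000, 24 windows, 2.41 ± 0.22, none called H3K4me3) from a shorter one of 6 kb around the first start (3 windows, 1.80 ± 1.26, all called H3K4me3).

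Dnmt1 has coding transcripts from starts 6.91 kb apart. GENCODE gives the protein from the first start 1501 residues and the longest protein from the inner start 1620 residues. The shorter protein is the form that oocytes are known for, although the annotation attaches no tissue to either, and a transcript whose start is in the same window as the inner one also codes for 1501 residues. The window of the first start was called H3K4me3 and was at 1.22, 0.793 and 6.09 RPKM in replicates 1, 2 and 3. Its mean of 2.70 was set by replicate 3 and was 1.01 without it. It lay in a stretch of 10 kb called H3K4me3 (20956001 to 20966000). The window of the inner start carried H3K36me3 at 2.04, 4.36 and 1.35 RPKM and no H3K4me3 call.

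The mean level of Dnmt1 differed between these segments. It was 1.15 ± 0.53 RPKM in the 10 kb before the first start, 1.83 ± 0.36 between both starts and 2.65 ± 0.32 in the 15.8 kb after the inner one (windows assigned by their midpoint). The last step was seen in every replicate, with log2 ratios of 0.72, 0.64 and 0.27 (mean 0.55 ± 0.24; exact sign-flip permutation p = 0.25, 1 of 6 steps tested in Dnmt1 and Dnmt3l). The step at the first start was 0.92, -0.23 and 1.56 on the log2 scale, so replicate 2 went the other way (exact permutation p = 0.5). A run of 3 enriched windows began 2.11 kb before the first start, but this position depended on the setting: with a threshold of 1.5, with runs of 5 windows or without replicate 1 it moved to 5.89 kb after the first start, and with runs of 2 windows or without replicate 3 to 10.1 kb before it. The neighbour upstream, S1pr2, was at 0.821 ± 0.29 RPKM.

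Uhrf1, which reads newly copied DNA and brings DNMT1 to it, lies on chromosome 17 from 56303321 to 56323486. Its level was 1.88, 2.23 and 2.37 RPKM (mean 2.16 ± 0.25), and all 11 windows were enriched, 10 of them in each replicate. Its coding starts lie in adjacent windows, both called H3K4me3. The window of the outer start was at 0.815, 0.396 and 2.03 RPKM (mean 1.08), and was 0.606 without replicate 3, below the threshold. The next window was the highest of the gene, at 3.39, 2.77 and 5.08 RPKM. The enriched run went on for 62 kb, 40.5 kb beyond the gene end, into Kdm4b (2.36 ± 0.10 RPKM, 38 of 39 windows enriched), so that signal at the end of Uhrf1 and signal of its neighbour cannot be told apart.

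Dppa3 (also called Stella), which protects the maternal genome from demethylation in the zygote, is a short gene on chromosome 6 from 122626410 to 122630272 with 3 windows. Its level was 1.49, 1.72 and 2.03 RPKM (mean 1.75 ± 0.27), from 33, 13 and 18 reads; the exact Poisson 95% interval in replicate 2 was 0.915 to 2.94, which covers counting error only. The windows were at 1.30, 3.11 and 0.830 RPKM in the direction of transcription. The middle one was high in every replicate, at 2.04, 3.57 and 3.72 RPKM. All 3 windows and all 10 flanking windows were called H3K4me3, and none of the flanking windows was enriched for H3K36me3 (0.290 ± 0.098 RPKM).

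Among the de novo methyltransferase genes, Dnmt3a, the enzyme that methylates the oocyte genome, lies on chromosome 12 from 3806007 to 3914443. Its level was 1.34, 1.54 and 1.37 RPKM (mean 1.41 ± 0.11), with 33 of 55 windows enriched. This average joined unlike parts. The window of the first start was at 0.543, 0.396 and 0 RPKM and was called both H3K4me3 and H3K27me3, as was the one after it. An enriched run began 50.0 kb into the gene, and the start of this run was at 35.994, 47.994 and 53.994 kb when each replicate was read alone.

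Before that run, the 25 windows of Dnmt3a had 0.793, 0.650 and 0.460 RPKM, with 4 windows enriched, and the 28 windows of the run had 1.84, 2.35 and 2.22 RPKM. These parts were bounded by the values themselves, and the difference is given as a description. Cut at its midpoint instead, the gene was at 0.760 ± 0.23 RPKM in its first part and 2.00 ± 0.17 in its second, with log2 ratios of 1.15, 1.07 and 2.11 (mean 1.44 ± 0.58; exact sign-flip permutation p = 0.25). The antisense gene Dnmt3aos (3859293 to 3862244) lies near the beginning of the run and was at 2.40 ± 0.29 RPKM; ChIP-seq reads carry no strand of transcription, so signal of both genes cannot be told apart.

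The internal start of Dnmt3a, 85.7 kb from the first and the origin of a shorter protein of 689 residues beside 908 from the first start, lay inside the run. Its window was at 1.49, 1.98 and 4.40 RPKM (mean 2.62, or 1.74 without replicate 3). It belonged to 8 kb (3888001 to 3896000) called H3K4me3 and H3K36me3 together, at 2.28 ± 0.31 RPKM. H3K36me3 was thus already called upstream of this start, from 3856001 on. Over the whole segment between the first coding start and the internal one the level was 1.34 ± 0.14 RPKM, and after it 1.81 ± 0.17, higher in 3 of 3 replicates (log2 ratio 0.44 ± 0.23; exact sign-flip permutation p = 0.25, 1 of 4 steps in Dnmt3a and Tet3 that were chosen after the values were seen). The earlier segment includes the 25 windows of low signal before the run. Within the run, the 17 windows before that of the internal start were at 1.92, 2.66 and 2.13 RPKM (mean 2.24 ± 0.38) and the 11 from it on at 1.73, 1.87 and 2.37 RPKM (mean 1.99 ± 0.34), so replicates 1 and 2 were lower and replicate 3 higher after the start.

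Dnmt3b, the second de novo enzyme, lies on chromosome 2 from 153649450 to 153687730. Its level was 2.49, 2.68 and 2.33 RPKM, higher than in 93.4% of protein-coding genes, and 19 of 20 windows were enriched. The start window carried 3.39, 5.55 and 1.69 RPKM without an H3K4me3 call. The antisense gene Dnmt3bos (153648690 to 153650286) overlaps this start and was at 2.95 ± 0.87 RPKM, so signal of both genes cannot be told apart there. The enriched run began 9.45 kb before the start and was 34 kb long (2.68 ± 0.14 RPKM), and H3K4me3 was called in 4 windows of the upstream flank (153638001 to 153646000) and in no window of the gene body. The body was higher in its first part (2.91 ± 0.23 RPKM) than in its second (2.09 ± 0.20) in all 3 replicates, with a log2 ratio of -0.48 ± 0.16 (exact sign-flip permutation p = 0.25).

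Downstream of Dnmt3b lies Dnmt3c, a copy of the gene found in rodents, in which all 17 windows were enriched (2.82 ± 0.41 RPKM). How reads that match both genes were placed is not given in the sources used here, so the values of both are uncertain to that extent. Between both genes, the windows beginning at 153690001 and 153692001 were each at 0.136 RPKM.

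Dnmt3l, a cofactor without catalytic activity of its own, lies on chromosome 10 from 78041947 to 78063622. Its level was 1.99, 1.78 and 2.57 RPKM (mean 2.11 ± 0.41), and all 12 windows were enriched, 8 of them in each replicate. The enriched run was 62 kb long (78026001 to 78088000, 2.27 ± 0.23 RPKM), reached 15.9 kb upstream and 24.4 kb downstream, and covered all windows of Aire (2.27 ± 0.50 RPKM) and of Icosl (2.59 ± 0.22). The beginning of Dnmt3l signal could therefore not be placed. When each replicate was read alone, the first run began 11.9 kb before the first start in replicates 1 and 3. In replicate 2 it began 6.05 kb after that start.

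The marks at the Dnmt3l starts differed. H3K4me3 was called over 6 kb (78038001 to 78044000), which holds the starts within Aire and no other coding start of Dnmt3l. The stretch also holds the beginning of Aire itself, at 78043610 on the other strand. The H3K4me3 calls of both genes can therefore not be told apart. The windows of this stretch were at 2.26, 1.32 and 4.29 RPKM of H3K36me3. The window of the start downstream of Aire, 7.89 kb in, was at 1.09, 2.38 and 1.02 RPKM without H3K4me3. That of the last start, whose transcripts code for 126 residues instead of 421, was at 1.90, 5.95 and 4.06 RPKM, also without H3K4me3.

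Along Dnmt3l the level was 2.25 ± 0.66 RPKM in the 10 kb before the first start, 1.58 ± 0.38 up to the start at 78049842 and 2.29 ± 0.10 after it. It was lower after the first start in each replicate (log2 ratio -0.50 ± 0.08) and higher after the one at 78049842 in each replicate (0.56 ± 0.30; both with exact sign-flip permutation p = 0.25). The segment after that start holds 2 windows and 59 reads over all replicates.

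**Figure D3:**
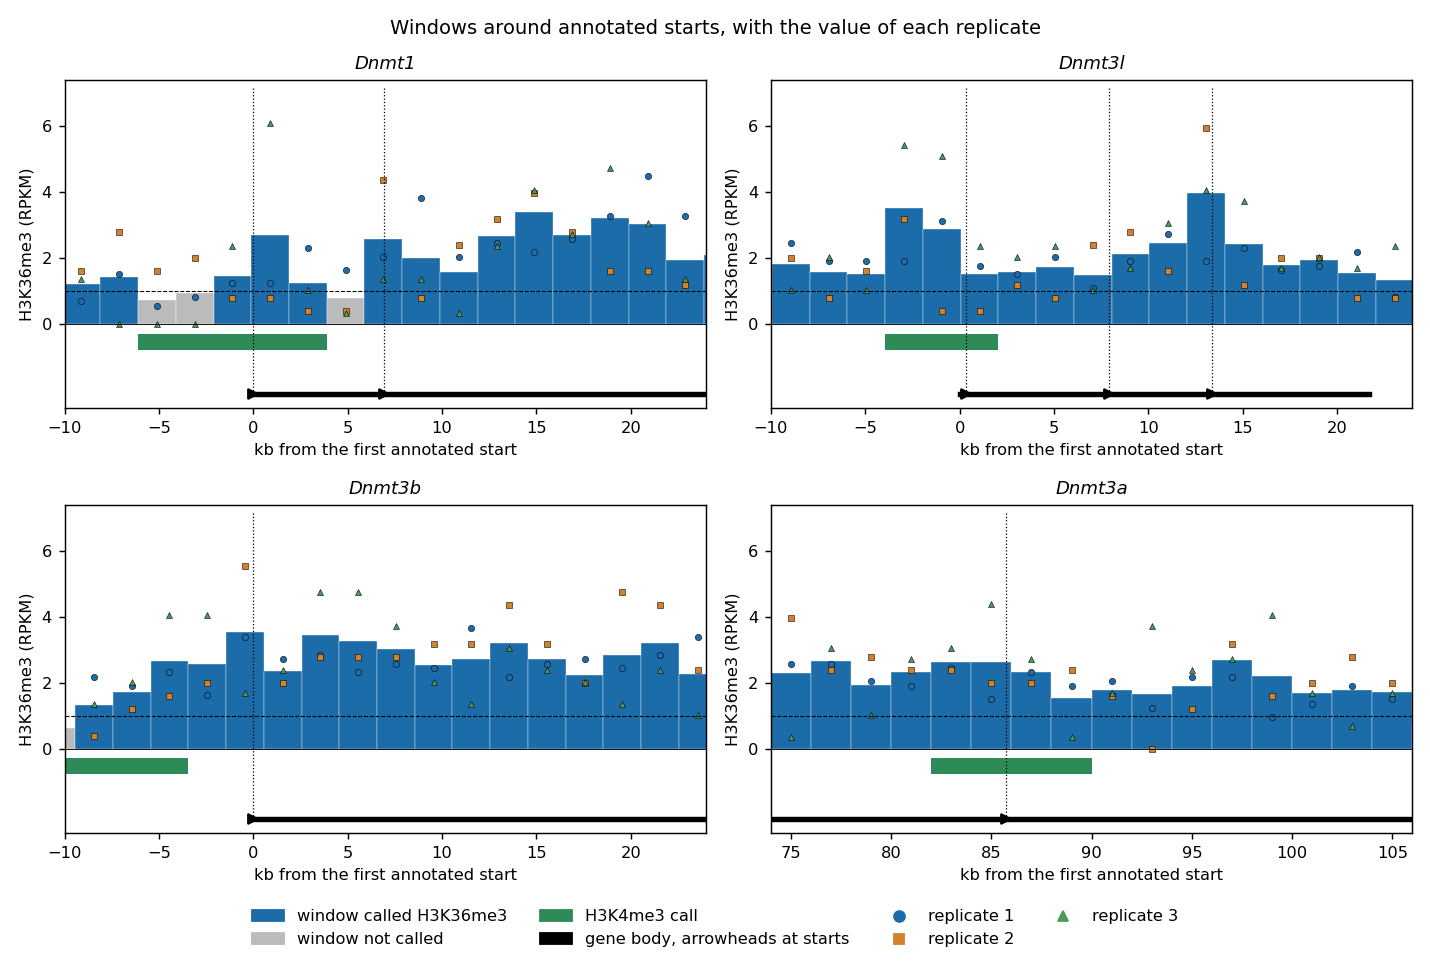
Windows around annotated starts of Dnmt1, Dnmt3l, Dnmt3b and Dnmt3a. The x axis is the distance in kb from the first annotated start, bars are mean RPKM, points are replicates and green strips are H3K4me3 calls; the Dnmt3a panel shows the internal start alone. Of the starts in the panels, the first ones of Dnmt1 and Dnmt3l and the internal one of Dnmt3a lie in H3K4me3 stretches, and replicate 3 at 6.09 RPKM stands above the others at the first Dnmt1 start.

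The TET genes were unlike each other. Tet3, the enzyme stored by the oocyte that oxidises the paternal genome in the zygote, lies on chromosome 6 from 83362373 to 83459084 on the minus strand. Its level was 2.47, 2.31 and 2.53 RPKM (mean 2.44 ± 0.11), and all 49 windows were enriched, 41 of them in each replicate. The run was 114 kb long, from 4.92 kb before the first start to 12.4 kb beyond the gene end, where it reached Bola3 (1.46 ± 0.15 RPKM). H3K4me3 was called over 6 kb at the first start (83456001 to 83462000) and in the windows from 83442001 to 83446000. The inner coding start at 83441675, from which a protein of 1668 instead of 1803 residues is made, lay just outside the latter in a window at 2.31, 0.793 and 3.72 RPKM. The gene B230319C09Rik on the opposite strand (83441755 to 83448322, 2.35 ± 0.47 RPKM) covers these H3K4me3 windows and begins beside that start, so the H3K4me3 calls of both genes cannot be told apart.

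The level of Tet3 was nearly even, at 2.26 ± 0.36 RPKM between its coding starts and 2.43 ± 0.05 after the inner one. The log2 ratio of the segments was 0.11 ± 0.20 and replicates differed in direction (exact sign-flip permutation p = 0.5).

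Tet2, on chromosome 3 from 133463679 to 133545139, was at 1.43, 1.10 and 1.76 RPKM (mean 1.43 ± 0.33), with 29 of 41 windows enriched and 12 of these in each replicate. The start window was at 0.951, 1.19 and 2.03 RPKM and called H3K4me3. Its enriched windows fell into several short runs, of which the longest was the last 22 kb of the gene (133462001 to 133484000). This stretch had 1.93, 1.87 and 2.95 RPKM, beside 1.24, 0.819 and 1.32 RPKM in the other 30 windows, a description since the values set its bounds. Cut at its midpoint, Tet2 was higher in its second part in each replicate (log2 ratio 0.26 ± 0.16; exact sign-flip permutation p = 0.25). H3K4me3 was called in 13 windows and H3K27me3 in none. A further run of 16 kb lay upstream (133550001 to 133566000, 1.79 ± 0.065 RPKM), separated from the gene by windows at 0.667 and 0.784 RPKM. The antisense gene Gm42567 (133545097 to 133585053) overlaps the first start, contains this upstream run and was at 1.59 ± 0.16 RPKM. Signal of both genes cannot be told apart there.

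Tet1, on chromosome 10 from 62804570 to 62908996, was at 0.479, 0.426 and 0.179 RPKM (mean 0.361 ± 0.16), and 22.05% of protein-coding genes were lower. All 3 replicates were below 1 and none overlapped with a value of the other genes. The reads numbered 187, 57 and 28, and the upper bounds of the exact Poisson 95% intervals reached at most 0.553 RPKM. A single window, from 62832001 to 62834000, was called enriched at 1.02 RPKM, which came from 0.407, 1.98 and 0.677 RPKM, and it was also called H3K27me3. Of the 53 windows 37 were called H3K27me3, the mark of Polycomb repression, and 28 were called H3K4me3, with 15 carrying both.

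**Figure D4:**
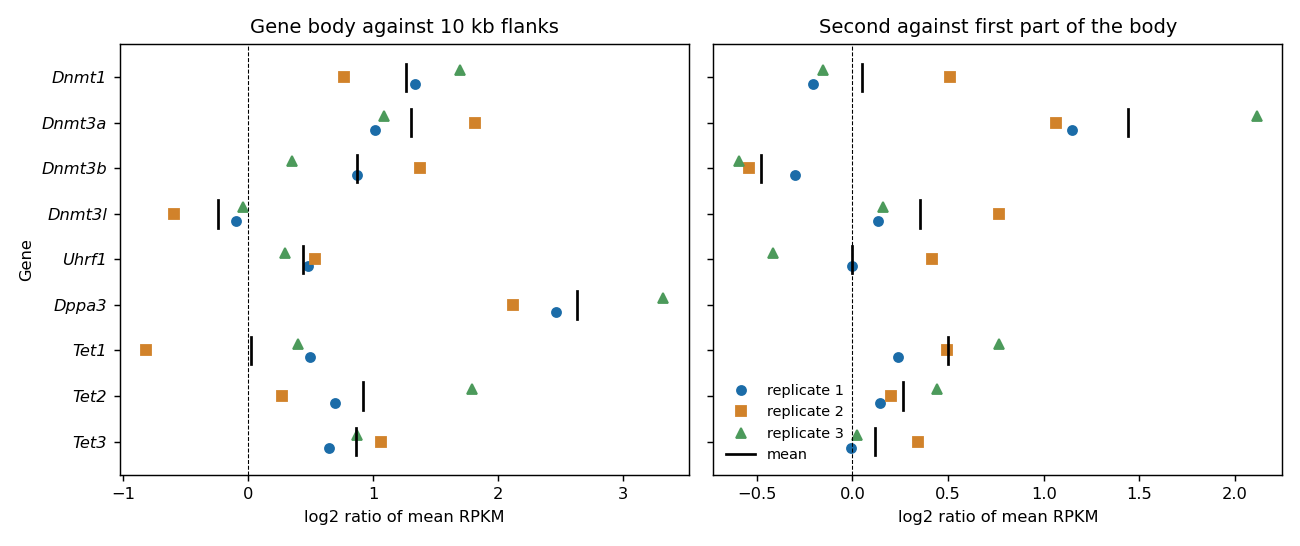
Log2 ratios of mean RPKM for each gene: gene body over both 10 kb flanks (left) and second over first part of the gene body (right). Points are replicates and black lines means; Dppa3 has too few windows for the right panel. Of the genes shown, 7 lie above 0 in each replicate on the left, and Dnmt3a and Dnmt3b stand at opposite ends on the right.

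The gene bodies were compared with their own 10 kb flanks. The body was higher in each replicate in 7 of 9 genes, compared with 43.1% of protein-coding genes. The log2 ratio ranged from 0.44 ± 0.12 in Uhrf1 to 2.63 ± 0.62 in Dppa3 among these 7 (each exact sign-flip permutation p = 0.25). Dnmt3l was lower than its flanks in each replicate (-0.24 ± 0.31), but with the flank windows of other protein-coding genes left out the mean ratio was 0.30. In Tet1 the replicates disagreed (0.03 ± 0.73).

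Within gene bodies, the second part was higher than the first in each replicate in 4 of the 8 genes with at least 4 windows: Dnmt3a, Dnmt3l, Tet1 and Tet2. This compared with 41.1% of protein-coding genes of that length. Dnmt3b was lower in each replicate, and Dnmt1, Uhrf1 and Tet3 were mixed, with mean log2 ratios of 0.05 ± 0.40, 0.00 ± 0.42 and 0.12 ± 0.19. The smallest p among these tests was again 0.25 by exact permutation.

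Runs of at least 3 enriched windows began before the first annotated start in 6 of the 8 genes of at least 4 windows, compared with 32.9% of such protein-coding genes. These were Dnmt1, Dnmt3b, Dnmt3l, Uhrf1, Tet2 and Tet3. In 5 of the 8 at least 1 whole window of the run lay before the start, compared with 27.5%. The exception was Uhrf1, whose run began in the window that holds the start, with 0.0905 RPKM in the window before it, and in replicates 1 and 2 read alone 0.68 kb after the start. In Tet2 the run was the separate one upstream, within the antisense gene Gm42567, so it cannot be assigned to Tet2. The position of the first run of Tet2 also depended on the setting. It lay 1.14 and 21.1 kb after the start in replicates 1 and 2 and 0.861 kb before it in replicate 3. It moved to 65.1 kb after the start with a threshold of 1.5 and to 61.1 kb after it with runs of 5 windows. Without replicate 1 it lay 0.861 kb before the start. A run anywhere was found in 7 of the 8, with Tet1 as the exception, compared with 65.9%. In replicate 2 read alone, the first run of Dnmt3l began 6.05 kb after the first start. In Dnmt3l and Tet2 the run already covered the edge of the 10 kb that were read. With a threshold of 1.5 in place of 1, runs began before the first start in 3 genes. The single reads are coarse: a window above 1 takes 8 reads in replicate 1 and 3 reads in each of the other replicates.

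The first start window was called H3K4me3 in 7 of 9 genes, compared with 78.0% of protein-coding genes, and was enriched for H3K36me3 in 7 of 9, compared with 22.8%. Leaving out replicate 3 lowered the latter to 5, with Uhrf1 and Dppa3 falling below 1. Over all 15 starts of coding transcripts more than 2 kb apart, 10 lay in windows called H3K4me3, compared with 71.5% of 25401 such starts of all protein-coding genes. There were 12 in enriched windows (compared with 25.9%), and 10 without replicate 3. Both marks were called at 7 (compared with 15.8%) and H3K36me3 without H3K4me3 at 5 (compared with 10.1%). These sets differ in make-up, since the 15 starts belong to 9 genes and include several inner starts. The 25401 starts stand beside 20785 first start windows of protein-coding genes, so inner starts are a smaller share of them. The 5 starts with H3K36me3 and no H3K4me3 were the inner start of Dnmt1, the start of Dnmt3b, the last starts of Dnmt3l (78049842 and 78055335) and the inner start of Tet3. Dnmt3a at its outer start and Tet1 at both starts were the ones without H3K36me3.

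The H3K4me3 and H3K27me3 calls come from other libraries of GV oocytes made earlier by the same laboratory. These marks were profiled in replicates, but the calls used here are 1 per window, without values per replicate. Of the 271 gene body windows, 68 (25.1%) were called H3K4me3, compared with 28.3% of all valid windows. H3K27me3 was called in 39 windows (14.4%, compared with 30.0%), of which 37 were in Tet1 and the remaining ones were the first windows of Dnmt3a. Among the 182 enriched windows, 157 carried H3K36me3 alone, 24 (13.2%) H3K4me3 as well, compared with 16.0% of all enriched windows, and 1 (0.549%) H3K27me3, compared with 8.10%. Windows with H3K36me3 alone had 2.198, 2.262 and 2.281 RPKM. The 24 windows with H3K4me3 as well had 1.76, 1.60 and 2.78 RPKM, so they were lower in replicates 1 and 2 and higher in replicate 3. All of these windows had been selected by a mean above 1, so their levels are a description.

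**Figure D5:**
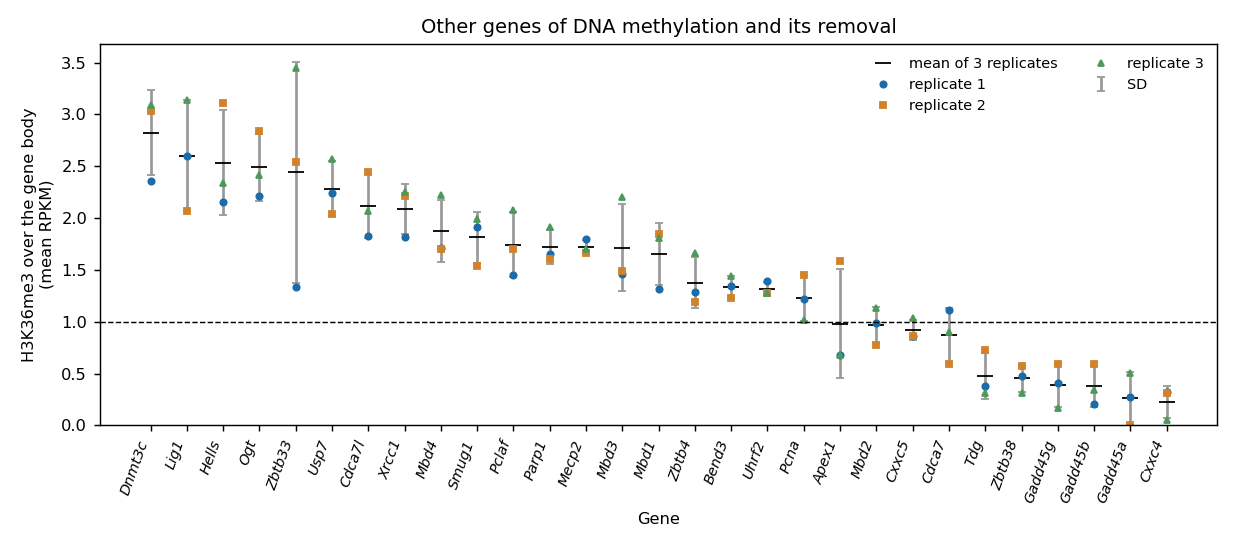
H3K36me3 over 29 other genes of DNA methylation and its removal, in order of the mean. The y axis is the mean RPKM of the windows of each gene, black marks are means of 3 replicates, error bars are SD, points are replicates and the dashed line is the threshold of 1; 19 genes lie above it, from Dnmt3c at 2.82 downwards.

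A list of 29 other genes of methylation maintenance, reading and demethylation had 19 genes above 1 (65.5%, compared with 52.5% of protein-coding genes), with a median of 1.66 RPKM. Levels reached from 0.227 to 2.82 RPKM, and 8 of the 29 genes held at least 1 window called H3K27me3. The share of all protein-coding genes with such a window was not computed, so this count has no comparison. Among the listed genes with at least 3 windows the highest were Dnmt3c, Lig1, the ligase that joins DNA fragments at replication, and Hells, a remodelling enzyme needed for methylation of repeats. Lig1 was at 2.60, 2.07 and 3.14 RPKM and Hells at 2.15, 3.11 and 2.34 RPKM. The lowest were Cxxc4, a partner of TET2, at 0.320, 0.311 and 0.0483 RPKM, Zbtb38, a reader of methylated DNA, at 0.475, 0.573 and 0.310 RPKM, and Tdg, a glycosylase that removes oxidised cytosine from DNA, at 0.385, 0.727 and 0.310 RPKM. All of these lowest values were below those of every replicate of the 8 members with a mean above 1, and the 3 highest genes overlapped with these members.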

How the data were processed

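The authors trimmed the H3K36me3 reads with TrimGalore, mapped them to GRCm38 with Bowtie2 (2.2.9) and quantified them in SeqMonk as RPKM over windows of 2 kb, leaving out windows with extreme input signal; removal of duplicates is not given in the sources used here. The deposited RPKM values are linear and per replicate, and all were whole multiples of the value of 1 read (0.136, 0.396 and 0.338 RPKM), within 0.01 reads; the reads of each replicate were recovered from them for exact Poisson 95% intervals, which cover counting error only, since PCR copies are not independent molecules. For replicate 1, scaling to the reads in valid windows alone (as in CPM) would make 1 read worth 0.127, and further division by window length in kb 0.0634, so the deposited scale lies near CPM and the threshold of 1 applies to that scale, used as deposited. The deposited H3K36me3 call equals a mean RPKM above 1, with 0 differences.

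Gene bodies and starts came from GENCODE M21. A gene's level is the mean over windows that overlap it, then over the 3 replicates. Starts at least 2 kb apart bounded segments, and exact sign-flip permutation tests over replicates were two-sided; they measure the spread between the 3 pools, cannot pass 0.05, and are given without adjustment. Genes were named by being members, neighbours, or the 3 highest and 3 lowest of the pathway list with at least 3 windows (1 gene of that list is not reported here); Zar1, Star, Fshr, Foxl2 and Pecam1 were picked from the marker lists after their values were seen. The members, lists and parts were chosen with earlier results of these data known. Python 3.11.15, numpy 2.4.6, pandas 2.3.3, scipy 1.17.1 and matplotlib 3.10.9 were used. On simulated reads for 200 genes, known differences between the parts of a gene body of 2-fold were recovered in direction in each replicate in 98.5% of 67 genes. The simulated reads held counting error alone, without spread between pools, and only long genes were drawn. This share therefore does not cover shorter genes, differences below 2-fold or the spread between the real replicates. Alternatives were thresholds of 1.5 and 2, other window assignments, flank lengths of 5 and 20 kb, run lengths of 2 and 5, pooled reads and leaving out each replicate.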

Additional observations from a re-analysis of the deposited data

How the results depend on the processing

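No paired analysis was possible because there was a single group. Without any 1 replicate, the number of genes above 1 was 8 in each case, enriched gene body windows numbered 176 to 181, genes above their flanks in each replicate 7 to 8, genes higher in the second part 4 to 5, runs beginning before the first start 5 to 6, Dnmt1 and Dnmt3l starts followed by a higher level 2 to 3, and pathway genes above 1 20 to 21. With a threshold of 2 in place of 1, 5 of the 9 genes, 100 of their windows and 8 pathway genes were above it; with a threshold of 1.5, 3 runs began before the first start. The stricter threshold itself accounts for these lower counts, and the shares over all genes and windows at these thresholds were not computed. Genes above their flanks in each replicate numbered 6 with 5 kb flanks and 6 without flank windows of other protein-coding genes, and 8 were above them on pooled reads.

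Several mean log2 ratios changed sign. For the body of Tet1 against its flanks, 5 kb flanks gave -0.25, 20 kb flanks -1.84, and leaving out a replicate -0.21 to 0.45. For Dnmt3l, leaving out flank windows of other protein-coding genes gave 0.30. For the second against the first part, Dnmt1 gave -0.055 with pooled reads and -0.18 to 0.18 without a replicate; Uhrf1 gave -0.14 with windows assigned by midpoint, -0.082 with the outer parts of the gene compared, -0.022 with pooled reads and -0.21 to 0.21 without a replicate. The step of Dnmt3l at 78054835 gave -0.065 with pooled reads and -0.057 to 0.14 without a replicate. The cause of these changes was not tested. An alternative that left a replicate without reads in a segment gave no value. Of 299 alternative values, which also include counts, levels and run positions, 14 were log2 ratios that changed sign. Not among these 14 are the run positions of Dnmt1, Uhrf1 and Tet2, which moved across the first start in some settings. Depth limits single windows: 1 read is worth up to 0.396 RPKM.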
